A study of Homo sapiens with 10 samples.

Results

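The genes described here are 49 genes that copy DNA and supply its building blocks. They were chosen by symbol: the factors that license and open replication origins, the polymerases and their accessory proteins, the enzymes of deoxynucleotide supply, and the proteins that package or supervise new DNA. Each of the 49 symbols matched 1 gene among the 60554 genes in the tables, and all 49 passed the filter on low counts that left 11640 genes for testing.

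Caco-2 cells derive from a carcinoma of the human colon and can take on features of enterocytes. In all groups the cells came from a puromycin-selected clone that carried dCas9-KRAB, a Cas9 that binds DNA without cutting it, joined to a repressor domain. A lentivirus then brought in a guide RNA, g1 or g2, against the long noncoding RNA LHFPL3-AS2, or, for gCtl, the guide plasmid without a guide. There were 5 gCtl libraries, 3 libraries labelled g1 and 2 labelled g2, and the last 5 together are called the libraries labelled knockdown. The labels do not say which libraries came from separate cultures, so p-values measure the spread between these libraries, which may be technical, and all of them share 1 starting clone. RNA was read from its polyadenylated end (QuantSeq), and the total per library lay between 3838803 and 8730468 estimated counts.

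LHFPL3-AS2, the RNA the guides target, stood at 1.73, 0.840, 3.73, 1.73 and 3.12 RPM (estimated counts relative to the library total) with the empty plasmid, at 3.07, 3.95 and 2.03 RPM with g1, and at 2.16 and 6.01 RPM with g2. The libraries labelled knockdown did not hold less of it (3.45 ± 1.63 RPM, SD, n = 5) than gCtl (2.23 ± 1.17 RPM, SD, n = 5), and an exact permutation test of log2(RPM + 1), two-sided, gave p = 0.19. Only 4.39 to 20.7 estimated counts per gCtl library and 13.2 to 44.0 per library labelled knockdown lie behind these levels, so they are imprecise. All directions given here therefore rest on the labels. Of 10 epithelial and enterocyte markers, all 10 were expressed, with a summed level of 2140 to 2898 RPM in gCtl, 2021 to 2523 RPM in g1 and 2173 to 2201 RPM in g2. Of 12 markers of blood, stromal, vascular, muscle and nerve cells, 2 (COL1A1 and PECAM1) passed the filter, LUM, VWF, CDH5 and NEFL stayed under 1 RPM in every library, and the sum of the 12 was 6.91 to 15.0 RPM in gCtl, 16.2 to 22.9 RPM in g1 and 9.25 to 13.1 RPM in g2. Reads at these markers do not show that such cells were present in a culture of 1 cell line, and their part in the results was not tested.

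Before a cell enters S phase, the origin recognition complex, CDC6 and CDT1 load rings of MCM2 to MCM7 onto DNA, which licenses each origin. CDC45 and the GINS complex then turn the ring into a moving helicase, primase and polymerase alpha start each strand, and polymerases delta and epsilon extend it while held by the PCNA clamp that replication factor C loads. RPA coats the single strands, FEN1 and LIG1 trim and seal the lagging-strand fragments, and ribonucleotide reductase, thymidylate synthase, thymidine kinase and dUTPase set the deoxynucleotide pools. Transcription of many of these genes rises at the transition from G1 to S phase under E2F factors, and in the intestine their expression marks the dividing crypt cells.

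Of the 49 genes, 12 were called lower and 0 higher in the libraries labelled knockdown. Calls required a fold change of 1.5 or more and, in edgeR's quasi-likelihood test over all genes tested, a p adjusted by Benjamini-Hochberg no higher than 0.05. The share called lower was 24.5% of the 49 genes, against 11.0% of all genes tested (8.14% were called higher). The 12 genes were MCM2, GINS2, PRIM1, POLD1, RPA1, RPA2, RPA3, FEN1, RRM1, TYMS, TK1 and DUT, so that single-strand binding and flap processing (4 of 5) and nucleotide supply (4 of 6) held 8 of them. Neither the clamp and clamp loader (0 of 6) nor the chromatin, checkpoint and control genes (0 of 7) held any. Groups of 6 and 7 genes are too small to set 0 calls apart from the 11.0% of all genes tested. Of the 12, POLD1 passed the filter on low counts only through the gCtl libraries. In bulk RNA, fewer cells in S phase and less RNA per cell cannot be told apart.

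With g1 alone, 11 of the 49 genes were called lower and 0 higher (22.4% lower, against 9.91% of all genes tested; all genes called higher, 6.81%), and with g2 alone 12 were called lower and 1 higher (24.5% lower, against 13.0%; all genes called higher, 10.7%). These comparisons share the gCtl libraries. Lower calls with both guides were made for 9 genes, DUT, FEN1, GINS2, MCM2, POLD1, RPA1, RPA2, RRM1 and TK1. POLD2 and RPA3 were called with g1 but not g2, and GINS3, PRIM1 and RFC3 with g2 but not g1. The direct test of g2 against g1 called 2 genes, GINS3 and RFC3, both lower with g2 (4.08% of the 49, against 3.42% of all genes tested, with 1.55% called higher). In all, 33 of the 49 genes were called in none of the comparisons with gCtl.

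The median log2 fold change of the 49 genes was -0.16 for the libraries labelled knockdown, -0.24 for g1 and -0.21 for g2, beside 0.02, 0.01 and 0.00 over all genes tested. Of the 49 values, 31, 37 and 32 were below 0. In 9 of the 49 genes every library labelled knockdown lay below every gCtl library (18.4%, against 8.33% of all genes tested), and in 1, ORC1, every one lay above (7.13% of all genes tested). Such separation was more common in the smaller groups. With g1, 14 of the 49 genes lay below gCtl and 1 above, beside 1570 and 1527 of all 11640 genes tested. With g2, these numbers were 17 and 4, beside 2296 and 2123. For g2 against g1 they were 9 and 11, beside 2014 and 1815. The counts of the 49 genes summed to 2775, 2654, 2328, 2761 and 2328 CPM (counts relative to the TMM-normalized library size) in gCtl, 2045, 2215 and 1999 CPM in g1, and 2072 and 2211 CPM in g2, so that the 2 sets did not overlap. Scaling by library totals alone moved the median of all genes in the g2 comparison from 0.00 to -0.16 and the split of all calls from 1514 lower and 1242 higher to 2061 lower and 750 higher. It moved the pooled split from 1284 lower and 948 higher to 1558 and 686, and that of g2 against g1 from 398 and 181 to 630 and 125. The 49 genes then held 14 calls in the pooled comparison.

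**Figure D1:**
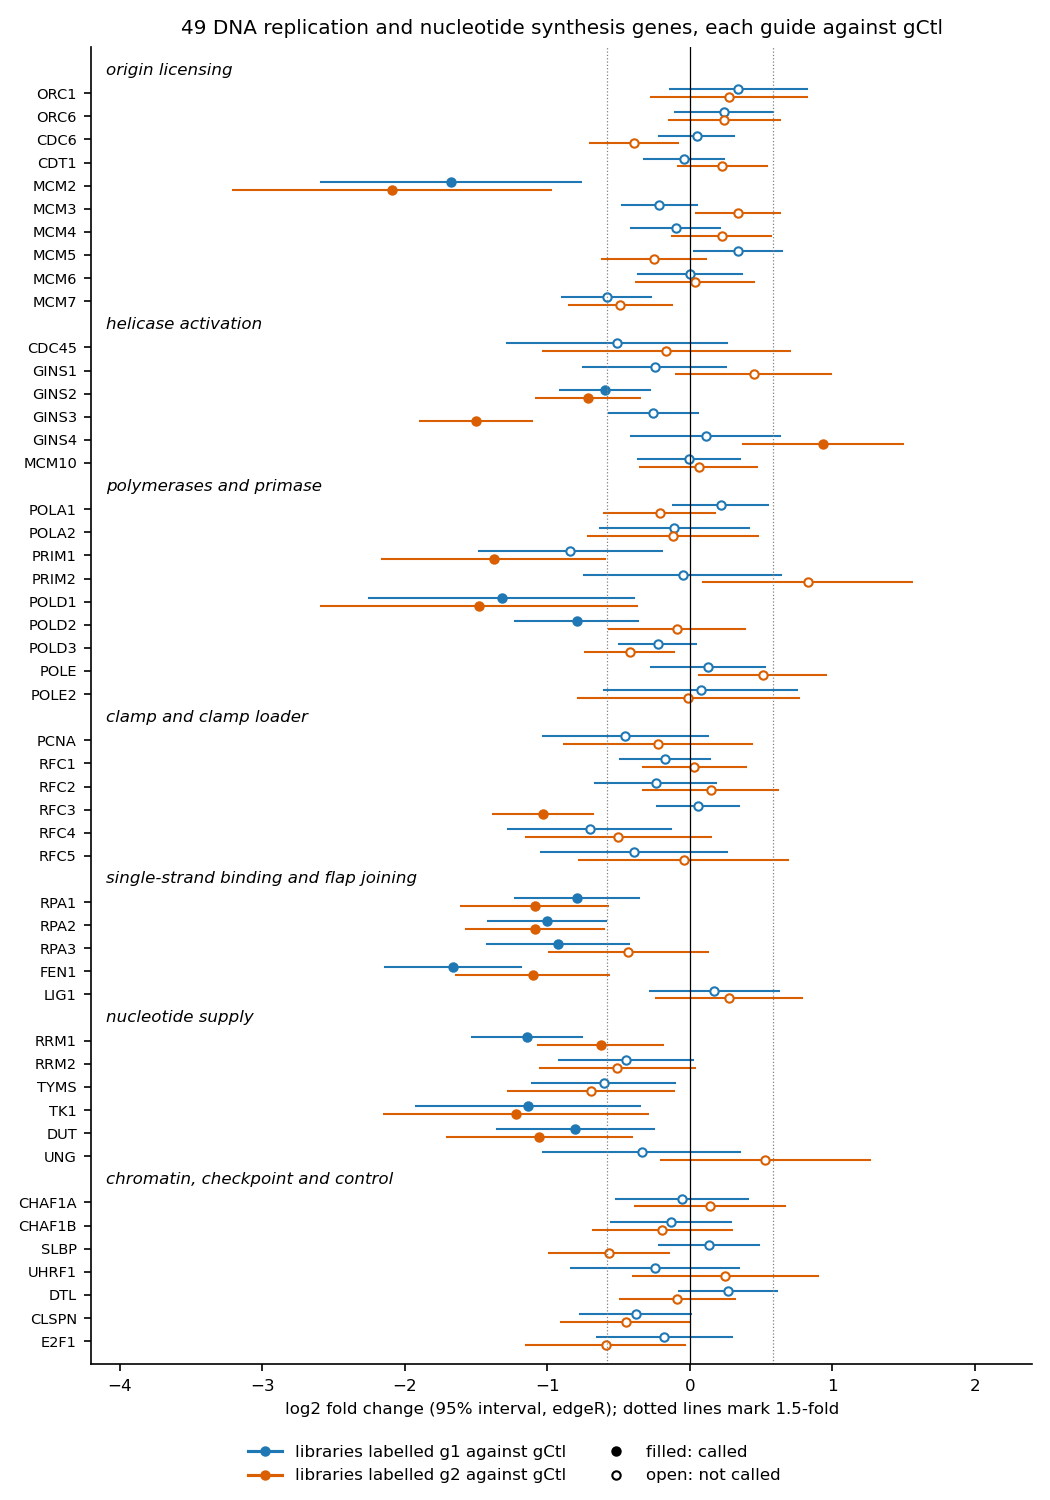
Log2 fold change of each of the 49 genes, by functional group, for the libraries labelled g1 (blue, n = 3) and g2 (orange, n = 2) against gCtl (n = 5), with the 95% interval from edgeR. Filled points were called: 11 for g1, all to the left of 0, and 13 for g2, of which GINS4 lies to the right.

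Within origin licensing, MCM2, a subunit of the ring that later unwinds DNA, was lower while its ring partners MCM3, MCM4, MCM5 and MCM6 were not called. MCM2 measured 18.7, 5.32, 11.3, 14.9 and 7.04 CPM in the gCtl libraries, 2.83, 4.43 and 3.41 CPM in g1, and 4.12 and 1.31 CPM in g2. The groups did not overlap, although gCtl itself spread widely and replicate 2 came close to the highest g1 library. MCM2 fell 3.55-fold in the libraries labelled knockdown (log2 fold change -1.83 ± 0.37 SE, adjusted p = 0.00327), 3.20-fold with g1 and 4.25-fold with g2. These levels rest on 29 to 75 counts per gCtl library and 9 to 28 counts per library labelled knockdown. TPRA1, a gene on the opposite strand, overlaps MCM2, and the sources used here do not say whether counting used strand.

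MCM7 lay just under the fold minimum. Its level was 143 to 185 CPM in gCtl (median 159), 114, 103 and 103 CPM in g1, and 133 and 95.4 CPM in g2, with no overlap between gCtl and the rest. The log2 fold change was -0.55 (± 0.13 SE, adjusted p = 0.00854), a 1.46-fold difference, so it was not called. Most MCM7 counts, 84.5% over all libraries, were assigned to a transcript annotated as a retained intron.

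The other ring subunits gave pooled intervals that held 0, with the guides averaged. In the pooled comparison the 95% interval of the log2 difference was -0.28 to 0.35 for MCM3, -0.27 to 0.34 for MCM4, -0.22 to 0.48 for MCM5 and -0.31 to 0.34 for MCM6. MCM3 was lower than gCtl in every g1 library (97.1, 92.9 and 97.4 CPM) and higher in both g2 libraries (150.2 and 131 CPM, against 102 to 119 CPM in gCtl). The difference between g2 and g1 in MCM3 had an adjusted p of 0.0467 in edgeR's test and a fold of 1.47, under the minimum. MCM5 went the other way, at 0.34 with g1 and -0.25 with g2, a difference that was not called (-0.59, adjusted p = 0.0768, edgeR). MCM4 gave -0.10 with g1 and 0.22 with g2. In the pooled comparison subunits of the same ring thus ranged from -1.83 for MCM2 to 0.13 for MCM5 on the log2 scale.

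**Figure D2:**
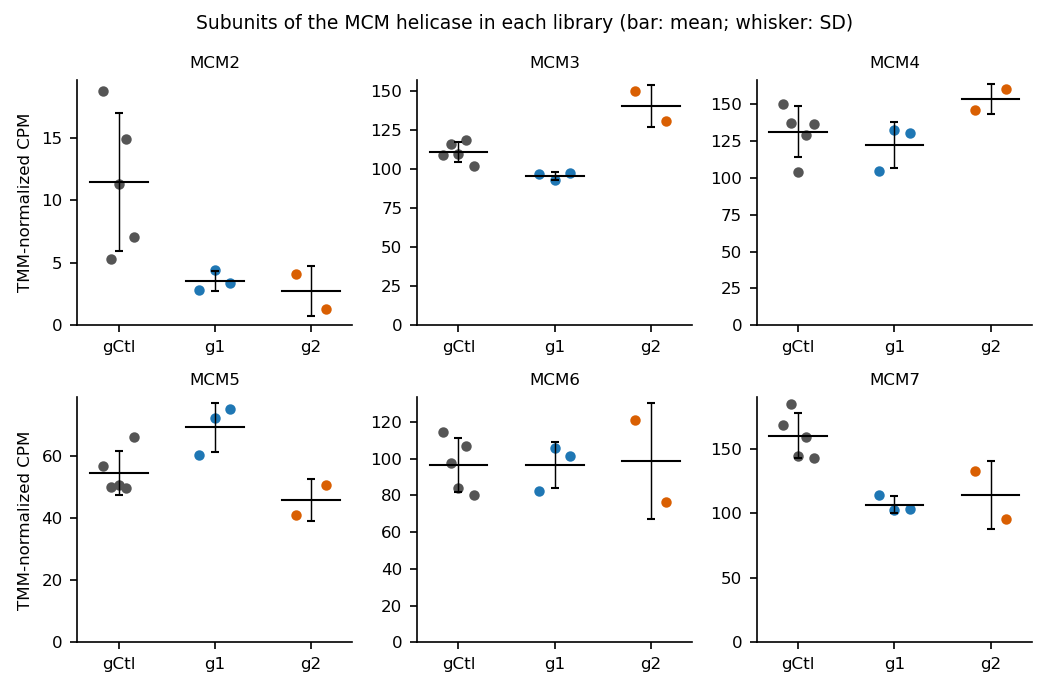
Level of MCM2 to MCM7 in each library in CPM, one point per library, with the mean (bar) and SD (whisker) of gCtl (n = 5), g1 (n = 3) and g2 (n = 2). In MCM2 and MCM7 all libraries labelled g1 or g2 sit below all gCtl libraries, while in MCM3 to MCM6 the libraries labelled knockdown overlap gCtl as a set.

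The loading factors were not called in any comparison. ORC1, the subunit of the origin recognition complex whose level changes over the cell cycle in human cells, was 5.88 to 7.70 CPM in gCtl (median 6.10) and 7.99 to 8.66 CPM in the libraries labelled knockdown, without overlap (log2 fold change 0.31, adjusted p = 0.262, edgeR). CDC6, the loader of the ring, measured 52.2 and 49.9 CPM in g2, below the 60.2 to 70.0 CPM of gCtl, with a log2 fold change of -0.40 and an adjusted p of 0.0564 in edgeR's test. ORC6 and CDT1 had log2 fold changes of 0.24 and 0.07 in the pooled comparison. Together the 10 licensing genes held 1 gene called in the pooled comparison, MCM2, a share near the 11.0% of all genes called lower. Their median log2 fold change was 0.03, beside 0.02 over all genes tested.

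Promoters of these genes are shown because their E2F sites are the sequence feature by which they are best known. RefSeq promoters (build GRCh38.p14, from 250 bases before to 50 after the start) were found for 43 of the 49 genes. The E2F motifs searched were TTTCGCGC and TTTGGCGC on both strands. At least 1 of them was present in 14 of the 43 genes, 32.6%, against 1.40% of the 27305 genes with a promoter in the table. Among the 10 genes with a promoter that were called lower, 2 (DUT and MCM2) held a match, and among the 33 not called, 12 did. The stretch of 250 bases before the start is given for MCM6, MCM7, DUT and E2F1, and 28 bases around the match for MCM2 and MCM3, where it lies at the start itself. Capitals mark the matches.
MCM6 (chr2:135876444-135876693, minus strand): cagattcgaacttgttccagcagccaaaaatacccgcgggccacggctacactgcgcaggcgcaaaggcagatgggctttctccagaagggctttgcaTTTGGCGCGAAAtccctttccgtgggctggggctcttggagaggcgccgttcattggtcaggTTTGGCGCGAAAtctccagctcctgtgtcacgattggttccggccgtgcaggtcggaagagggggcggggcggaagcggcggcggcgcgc
MCM7 (chr7:100101398-100101647, minus strand): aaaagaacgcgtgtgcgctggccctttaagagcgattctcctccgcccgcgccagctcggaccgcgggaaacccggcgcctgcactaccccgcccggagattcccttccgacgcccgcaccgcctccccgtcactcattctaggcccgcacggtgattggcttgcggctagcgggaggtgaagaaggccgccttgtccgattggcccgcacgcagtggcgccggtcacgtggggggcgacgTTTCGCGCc
DUT (chr15:48331947-48332196, plus strand): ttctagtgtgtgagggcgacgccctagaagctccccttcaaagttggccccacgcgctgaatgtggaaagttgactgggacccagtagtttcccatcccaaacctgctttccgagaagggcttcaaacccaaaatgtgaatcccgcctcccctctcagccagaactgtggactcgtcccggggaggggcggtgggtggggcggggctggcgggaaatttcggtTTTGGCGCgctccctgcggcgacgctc
E2F1 (chr20:33686386-33686635, minus strand): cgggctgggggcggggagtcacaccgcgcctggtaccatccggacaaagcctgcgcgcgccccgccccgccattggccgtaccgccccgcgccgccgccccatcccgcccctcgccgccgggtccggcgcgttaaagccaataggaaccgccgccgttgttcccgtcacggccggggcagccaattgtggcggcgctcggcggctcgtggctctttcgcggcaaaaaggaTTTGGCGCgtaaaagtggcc
MCM2 (chr3:127598403-127598430, plus strand): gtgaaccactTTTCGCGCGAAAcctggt
MCM3 (chr6:52284729-52284756, minus strand): gttcggaagtTTTCGCGCcggggtggag

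In MCM6 each of the 2 marked stretches holds TTTGGCGC on the gene's strand and TTTCGCGC on the opposite strand, overlapping by 4 bases, and in MCM2 TTTCGCGC reads on both strands with the same overlap. The CCAAT box (CCAAT) was present in 62.8% of the 43 genes, against 39.7% of all genes in the promoter table, and in 5 of the 10 called lower. The CHR element TTTGAA was found in DUT, RRM1 and UNG, 6.98% of the 43 genes, against 18.2% of all. A match is a description of letters in this window and not a bound site.

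Helicase activation showed a difference among the subunits of a single complex. GINS is a ring of GINS1, GINS2, GINS3 and GINS4 that joins CDC45 and the MCM ring at the fork. GINS2 was called lower with both guides, GINS3 was called lower with g2 only, and GINS4 was called higher with g2 only, while GINS1 was not called. GINS2 measured 63.5, 61.7, 43.8, 55.4 and 59.1 CPM in gCtl, 39.3, 35.0 and 38.0 CPM in g1, and 34.8 and 34.2 CPM in g2. The lowest gCtl library stood above the highest library labelled knockdown, and the fold was 1.56 (log2 fold change -0.64 ± 0.13 SE, adjusted p = 0.00327, edgeR).

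GINS3 was at 52.2, 54.5, 69.2, 63.1 and 71.9 CPM in gCtl, at 46.0, 55.7 and 54.7 CPM in g1, and at 21.9 and 22.1 CPM in g2. Both g2 libraries lay far below all others, whereas g1 overlapped gCtl. The g2 libraries differed from gCtl by a log2 fold change of -1.50 (SE 0.19, adjusted p = 6.91e-05) and from g1 by -1.24 (SE 0.19, adjusted p = 0.00194, edgeR). Of the GINS3 counts in gCtl, 87.8% were assigned to a transcript annotated as a retained intron, whose end lies 662 bases downstream of the end of the protein-coding ENST00000426538.6. Protein-coding transcripts of GINS3 held 0 to 24.3 counts per library, and with those alone the g2 value was 1.72 (adjusted p = 0.188), above 0.

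GINS4 measured 12.0, 7.16, 10.3, 10.6 and 9.15 CPM in gCtl, 6.83, 13.9 and 11.1 CPM in g1, and 19.5 and 17.9 CPM in g2. It was the only gene of the 49 called higher in any comparison with gCtl (g2, log2 fold change 0.93, SE 0.27, adjusted p = 0.0177, edgeR). Without g2 replicate 1 or without g2 replicate 2 the call was lost. GINS1 had a log2 fold change of 0.45 with g2 and an adjusted p of 0.213. The remaining helicase activators, CDC45 and MCM10, which recruits polymerase alpha, gave pooled log2 fold changes of -0.37 (95% interval -1.03 to 0.30) and 0.02 (-0.30 to 0.34).

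**Figure D3:**
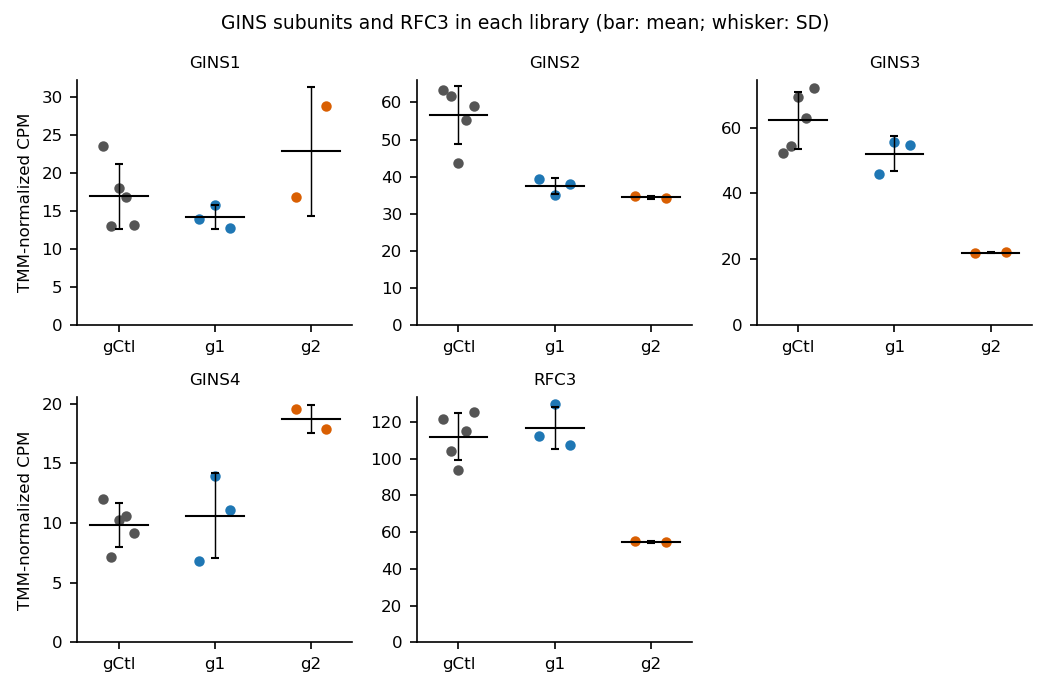
Level of GINS1 to GINS4 and of RFC3 in each library in CPM, one point per library, with the mean (bar) and SD (whisker) of gCtl (n = 5), g1 (n = 3) and g2 (n = 2). In GINS3 and RFC3 the 2 g2 libraries lie below all others, in GINS4 they lie above all others, and in GINS2 all g1 and g2 libraries lie below gCtl.

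Among polymerases and primase, PRIM1 and POLD1 were called lower in the pooled comparison and POLD2 with g1, while the subunits of polymerases alpha and epsilon were not called. PRIM1, the catalytic subunit of primase, measured 32.7, 26.1, 19.2, 26.7 and 14.8 CPM in gCtl, 11.3, 17.5 and 11.3 CPM in g1, and 13.4 and 5.09 CPM in g2. A single g1 library exceeded the lowest gCtl library. The log2 fold change was -1.03 (± 0.28 SE, adjusted p = 0.0158, edgeR) in the pooled comparison and -1.38 with g2, and with g1 it was -0.84 with an adjusted p of 0.0622. PRIM2, the partner of PRIM1, gave 0.37 (95% interval -0.32 to 1.05). NACA, whose counts were far higher than those of PRIM1, overlaps it on the same strand.

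POLD1, the catalytic subunit of polymerase delta, was low in every library, at 4.75, 3.30, 3.84, 4.81 and 3.52 CPM in gCtl, 0.833, 1.06 and 2.68 CPM in g1, and 1.08 and 1.74 CPM in g2. The groups did not overlap, but the levels rest on 18 to 22 counts per gCtl library and 5 to 22 counts per library labelled knockdown. Its log2 fold change was -1.39 (± 0.37 SE, adjusted p = 0.0138, edgeR). The calls within each guide were closer to the threshold, with adjusted p of 0.0439 for g1 and 0.0476 for g2. Leaving out any of gCtl replicates 1 to 4 ended the call with either guide, as did leaving out g1 replicate 2, and g1 replicate 1 mattered for g1 and either g2 library for g2. Most POLD1 counts, 60.8% over all libraries, were assigned to a transcript annotated as a retained intron. Protein-coding transcripts held 14.5%, and with those alone POLD1 was not tested.

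POLD2, the accessory subunit that binds POLD1, measured 33.0, 30.3, 29.6, 31.8 and 22.7 CPM in gCtl, 22.2, 12.0 and 16.4 CPM in g1, and 24.9 and 30.2 CPM in g2. All g1 libraries lay below gCtl and both g2 libraries lay within its range. With g1 the log2 fold change was -0.79 (± 0.20 SE, adjusted p = 0.0127, edgeR), and with g2 it was -0.09. The g1 call was lost without g1 replicate 2 and with protein-coding transcripts alone (-0.44, adjusted p = 0.546), which held 30.9% of the POLD2 counts, the leading transcript being a retained intron. The direct difference between g2 and g1 was 0.70 with an adjusted p of 0.11, so it was not called. POLD3, a further subunit of polymerase delta, had a narrow gCtl range of 132 to 139 CPM and lay at 91.3 to 124 CPM in the libraries labelled knockdown. Those did not overlap gCtl, yet the log2 fold change was -0.30 with an adjusted p of 0.0761 and POLD3 was not called. POLA1 and POLA2, POLE and POLE2 had pooled log2 fold changes between -0.11 and 0.29.

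The clamp PCNA and 4 of the 5 subunits of its loader were not called in any comparison. PCNA, also a common marker of dividing cells, measured 7.56 to 14.5 CPM in gCtl (median 9.94) and 6.96 to 11.5 CPM in the libraries labelled knockdown. Its pooled log2 fold change was -0.36 with a 95% interval of -0.87 to 0.15, which leaves room for a decrease of the size called elsewhere. All 6 genes had pooled values below 0, from -0.62 for RFC4 (adjusted p = 0.0621) to -0.07 for RFC2.

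RFC3, a small subunit of the loader, stood at 122, 104, 93.8, 115 and 125 CPM in gCtl, at 112, 129.6 and 108 CPM in g1, and at 55.0 and 54.4 CPM in g2. Both g2 libraries lay far below the rest, which overlapped. The log2 fold change with g2 was -1.03 (SE 0.17, adjusted p = 0.000513), and that of g2 against g1 was -1.09 (SE 0.18, adjusted p = 0.00243, edgeR). Between 88.2% and 97.8% of the counts of RFC3 in each library were assigned to ENST00000434425.5, a transcript whose annotated end lies 129062 bases downstream of the end of ENST00000380071.7. Most counts behind the g2 value were thus assigned to that distant end.

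Single-strand binding and flap cutting was the group with the largest share of lower genes. RPA1, RPA2 and RPA3 form the trimer that coats single-stranded DNA, and FEN1 cuts the flaps of lagging-strand fragments. All 4 were called lower in the pooled comparison, and LIG1, the ligase that acts after FEN1, was not (log2 fold change 0.21, 95% interval -0.19 to 0.61). Summed over the 5 genes the level was 202, 182, 167, 183 and 138 CPM in gCtl, 93.3, 94.3 and 81.2 CPM in g1, and 118 and 82.1 CPM in g2, without overlap.

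RPA1 measured 61.5, 57.3, 51.1, 51.7 and 48.2 CPM in gCtl, 37.0, 31.4 and 25.3 CPM in g1, and 34.4 and 16.6 CPM in g2. The fold was 1.87 (log2 fold change -0.90 ± 0.19 SE, adjusted p = 0.00346, edgeR). RPA2 measured 19.2, 18.4, 20.8, 15.9 and 18.3 CPM in gCtl, 7.83, 10.1 and 9.74 CPM in g1, and 8.25 and 9.16 CPM in g2. It showed the tightest separation of the trimer, at 2.05-fold (log2 fold change -1.04 ± 0.17 SE, adjusted p = 0.000719, edgeR), and the guides gave nearly the same value (-1.004 and -1.09). For both genes no library labelled knockdown reached the lowest gCtl library.

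RPA3 was at 47.0, 39.7, 37.8, 35.4 and 23.7 CPM in gCtl, at 19.0, 23.0 and 16.1 CPM in g1, and at 35.1 and 19.3 CPM in g2. The g1 libraries lay below gCtl, and g2 replicate 1 lay inside its range. With g1 RPA3 was called (log2 fold change -0.93 ± 0.24 SE, adjusted p = 0.012, edgeR), with g2 it was not (-0.43, adjusted p = 0.237), and the difference between the guides was not called (0.50, adjusted p = 0.344). The pooled call (-0.71, adjusted p = 0.0285) was lost when any of gCtl replicates 1 to 4, g1 replicates 1 or 3, or g2 replicate 2 was left out.

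FEN1 measured 63.0, 56.6, 46.6, 71.0 and 32.5 CPM in gCtl, 15.5, 18.4 and 17.05 CPM in g1, and 27.97 and 22.1 CPM in g2. No library labelled knockdown reached gCtl, and the g1 libraries were the lowest. The fold was 2.66 in the pooled comparison (log2 fold change -1.41 ± 0.21 SE, adjusted p = 0.000451, edgeR), 3.17 with g1 and 2.15 with g2. TMEM258 overlaps FEN1 on the opposite strand and held far more counts.

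Nucleotide supply fell in 4 of its 6 genes in the pooled comparison: RRM1, the large subunit of ribonucleotide reductase, TYMS, which makes dTMP from dUMP, TK1, which salvages thymidine, and DUT, which removes dUTP. The 6 genes summed to 552, 531, 393, 549.7 and 327 CPM in gCtl, 259, 282 and 198 CPM in g1, and 319 and 283 CPM in g2. The lowest gCtl library, replicate 5, stood just above the highest library labelled knockdown. RRM1 made up most of the gCtl sum, with a mean of 302 CPM where the 6 genes together averaged 470 CPM. Replicate 5 was also the lowest gCtl library in 8 of the 12 genes called lower. Without it, 15 of the 49 genes were called lower in the pooled comparison. Of all 11580 genes then tested, 1417 were called lower, against 1284 of 11640 with all libraries.

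RRM1 measured 339, 351, 252, 352 and 218 CPM in gCtl, 147, 153 and 111 CPM in g1, and 199 and 192 CPM in g2. Every library labelled knockdown lay below gCtl, g1 more so than g2. The fold was 1.88 (log2 fold change -0.91 ± 0.18 SE, adjusted p = 0.00291, edgeR), with -1.14 for g1 and -0.63 for g2, and the difference of 0.51 between the guides was not called (adjusted p = 0.187). With protein-coding transcripts alone none of the 3 RRM1 calls held: the log2 value was -0.16 in the pooled comparison (adjusted p = 0.881), -1.13 with g1 (adjusted p = 0.251) and 0.63, above 0, with g2 (adjusted p = 0.527). Those transcripts held 12.3 to 160 counts per gCtl library and 34.5 to 299 per library labelled knockdown. A protein-coding transcript ends 1 base from the leading one, which is not protein coding. Whether reads can tell these ends apart was not tested. RRM2, the small subunit whose level follows S phase, spanned 44.7 to 85.5 CPM in gCtl and 38.5 to 66.5 CPM in the libraries labelled knockdown. Its log2 fold change was -0.47 (95% interval -0.89 to -0.06, adjusted p = 0.0867), and it was not called.

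DUT measured 69.2, 44.4, 31.7, 54.4 and 24.3 CPM in gCtl, 24.7, 26.6 and 25.2 CPM in g1, and 21.9 and 20.9 CPM in g2. The gCtl libraries spread widely and replicate 5 lay below all 3 g1 libraries. DUT fell 1.87-fold (log2 fold change -0.90 ± 0.23 SE, adjusted p = 0.0112, edgeR). Its calls within each guide were lost with either g2 library left out for g2, and with any of gCtl replicates 1, 2 and 4 or any g1 library left out for g1.

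TK1 measured 15.2, 19.3, 16.04, 18.5 and 9.67 CPM in gCtl, 10.2, 6.12 and 5.24 CPM in g1, and 11.1 and 2.62 CPM in g2. Only gCtl replicate 5 overlapped the other libraries. The log2 fold change was -1.17 (± 0.32 SE, adjusted p = 0.0167, edgeR). With a single guide the adjusted p was 0.041 for g1 and 0.0497 for g2, and these calls were lost without any of gCtl replicates 1 to 4, without g1 replicate 2 or 3 for g1, and without g1 replicate 2 or g2 replicate 2 for g2.

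TYMS measured 38.2, 33.2, 25.3, 40.9 and 21.6 CPM in gCtl, 22.8, 26.0 and 14.2 CPM in g1, and 21.3 and 17.9 CPM in g2. The ranges met at gCtl replicates 3 and 5. Its pooled log2 fold change was -0.64 (± 0.21 SE, adjusted p = 0.0335, edgeR), a call lost without gCtl replicate 1, 2 or 4, g1 replicate 3 or g2 replicate 2, and neither guide alone was called. ENOSF1 and TYMSOS overlap TYMS on the opposite strand. UNG, the glycosylase that removes uracil from DNA, gave 0.08 (95% interval -0.59 to 0.74).

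**Figure D4:**
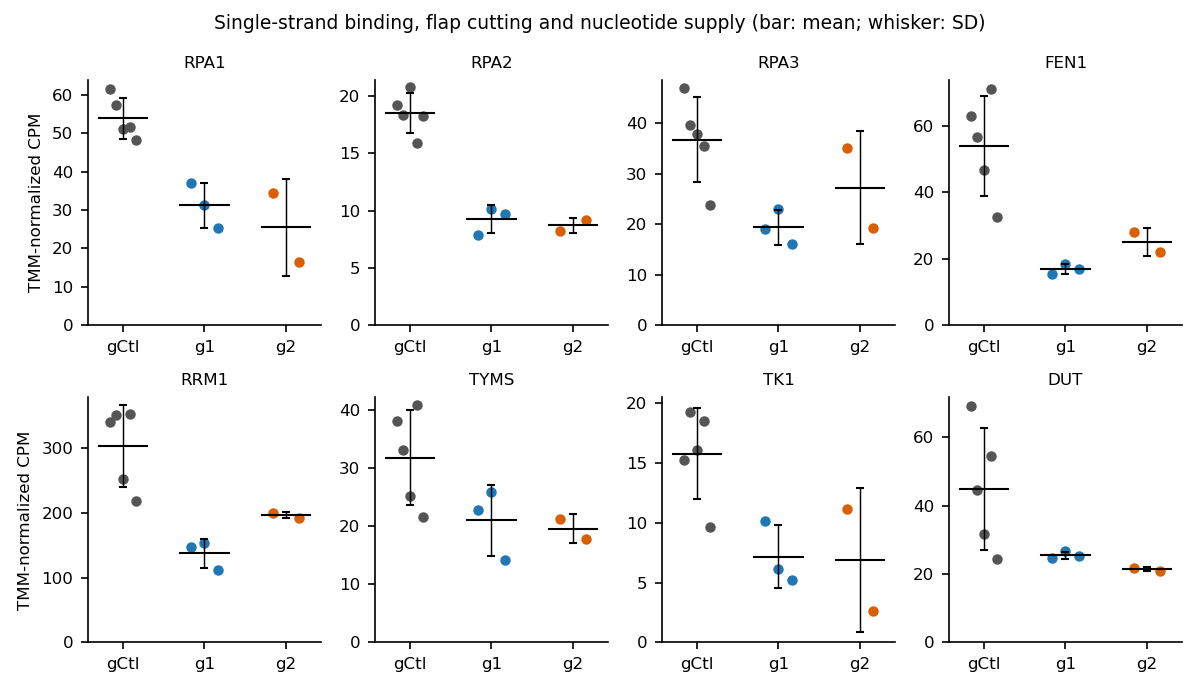
Level of RPA1, RPA2, RPA3, FEN1, RRM1, TYMS, TK1 and DUT in each library in CPM, one point per library, with the mean (bar) and SD (whisker) of gCtl (n = 5), g1 (n = 3) and g2 (n = 2). All libraries labelled g1 or g2 sit below gCtl in RPA1, RPA2, FEN1 and RRM1, and the lowest gCtl point in RPA3, FEN1, RRM1, TYMS, TK1 and DUT is replicate 5.

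The chromatin, checkpoint and control genes were not called in any comparison. These are the subunits CHAF1A and CHAF1B of the factor that deposits histones on new DNA, SLBP, which binds histone mRNA, UHRF1, which carries DNA methylation to the new strand, DTL, which marks CDT1 for destruction, CLSPN, an adaptor of the replication checkpoint, and E2F1. Pooled log2 fold changes ran from -0.41 for CLSPN (adjusted p = 0.0779) to 0.14 for DTL, and the median was -0.11. SLBP measured 12.9 and 13.4 CPM in g2, below the 17.8 to 23.0 CPM of gCtl, with an adjusted p of 0.0453 and a 1.48-fold difference that was under the minimum. E2F1, whose promoter is printed above, measured 19.3 to 32.7 CPM in gCtl, 22.6 to 23.5 CPM in g1, and 11.8 and 22.5 CPM in g2 (pooled 95% interval -0.78 to 0.11).

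Several of these genes divide their counts among annotated transcripts, and the transcripts did not always move together. A fit at the level of single transcripts, chosen after the gene values were seen, tested 27201 transcripts, of which 106 belonged to 47 of the 49 genes. Of the 106, 11 were called lower and 0 higher in the pooled comparison (10.4% lower, against 3.5% of all transcripts tested, of which 1.97% were called higher). With g1 alone 5 were called lower (4.72%, against 1.78%) and 1 higher (1.06% of all), and with g2 alone 9 were called lower (8.49%, against 4.03%) and 0 higher (2.23% of all). The transcript called higher with g1 was MCM7 ENST00000621318.4, listed at 0 in all gCtl and g2 libraries and at 27.4, 9.21 and 16.6 CPM in g1. It thus passed the filter of 3 RPM only through g1, the group where it is high. The 11 came from 11 genes, of which 6 were also called at the gene level (FEN1, GINS2, MCM2, RPA2, RPA3 and RRM1) and 5 were not (MCM3, MCM7, POLE, RFC3 and RFC4). Kallisto divides a read that fits several transcripts among them, so such values are estimates.

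In RPA3 the decrease lay in the transcript whose end lies further upstream. ENST00000406109.5, which ends 409 bases upstream of ENST00000223129.8, measured 22.2, 19.1, 19.4, 18.0 and 10.7 CPM in gCtl, 3.16, 2.87 and 2.65 CPM in g1, and 6.65 and 2.53 CPM in g2. Its log2 fold change was -2.32 (± 0.33 SE, adjusted p = 0.00646, edgeR over transcripts), and it was called with each guide. ENST00000223129.8 gave -0.09 (SE 0.26, adjusted p = 0.872). The share of the RPA3 counts held by ENST00000406109.5 was 45.1% to 51.3% in gCtl and 12.9% to 19.0% in the libraries labelled knockdown.

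Estimated counts also moved unevenly between transcripts in FEN1, MCM3 and POLE. FEN1 ENST00000535307.1 had a log2 fold change of -2.11 (adjusted p = 0.00357) and ENST00000305885.2, whose end is 12 bases away, of -0.34 (adjusted p = 0.598). Whether reads from the polyadenylated end can tell ends this close apart was not tested. MCM3 ENST00000229854.11 was called lower (-0.67, adjusted p = 0.0369), while ENST00000421471.1, which ends 612 bases upstream, was at 0 to 20.1 CPM in gCtl, 25.4 to 32.3 CPM in g1, and 71.1 and 76.4 CPM in g2. The latter did not overlap gCtl but was not called (2.58, SE 0.80, adjusted p = 0.0855). Its share of the MCM3 counts was 0.0731% to 19.7% in gCtl and 26.2% to 60.3% in the libraries labelled knockdown, while the log2 fold change of MCM3 as a gene was 0.03.

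POLE ENST00000541627.2, annotated as a retained intron, was called lower (log2 fold change -1.04 ± 0.23 SE, adjusted p = 0.0322, edgeR over transcripts). It measured 29.3, 23.4, 23.5, 22.2 and 12.7 CPM in gCtl, 11.1, 9.83 and 8.43 CPM in g1, and 11.5 and 12.9 CPM in g2. ENST00000544692.5, which ends 953 bases upstream, gave 0.86 (adjusted p = 0.0914) and its share of the POLE counts was 22.4% to 40.1% in gCtl and 42.0% to 52.8% in the libraries labelled knockdown.

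In RFC3 the transcript with the usual gene end, ENST00000380071.7, was called lower in the pooled comparison (log2 fold change -1.49 ± 0.38 SE, adjusted p = 0.049, edgeR over transcripts). It measured 13.3, 11.5, 10.3, 13.6 and 3.52 CPM in gCtl, 2.49, 3.48 and 3.37 CPM in g1, and 5.93 and 3.23 CPM in g2. The distant transcript ENST00000434425.5 was at 83.9 to 122 CPM in gCtl, 103 to 122 CPM in g1, and 49.2 and 49.4 CPM in g2, and was called lower with g2 alone (-1.07, adjusted p = 0.0124). The 2 ends of RFC3 thus differed in which libraries were low.

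In RRM1 most counts, 74.6% over all libraries, were assigned to ENST00000533495.5, a transcript annotated for nonsense-mediated decay whose end lies 1 base from that of the protein-coding ENST00000300738.9. It was called lower with each guide (pooled log2 fold change -1.31, adjusted p = 0.00762). Whether reads from the polyadenylated end can tell these 2 ends apart was not tested, so the fall cannot be placed on 1 of the transcripts. In all, 10 of the 49 genes had a leading transcript that is not annotated as protein coding, and 8 had under 20% of their counts at protein-coding transcripts.

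Other genes of replication and nucleotide synthesis were read from 4 lists that hold none of the 49 genes. Of 34 further replication genes tested, 2 were called lower and 1 higher in the pooled comparison, with a median log2 fold change of -0.07. RECQL4, a helicase needed at origins, fell (-1.19, adjusted p = 0.0295), as did ORC5 of the origin recognition complex (-0.93, adjusted p = 0.0337). RECQL4 passed the filter of 3 RPM only through gCtl, as no library labelled knockdown exceeded 2.61 RPM. POLD4, the smallest subunit of polymerase delta, measured 11.7, 14.9, 14.3, 13.5 and 15.0 CPM in gCtl, 22.8, 19.6 and 41.6 CPM in g1, and 28.7 and 23.1 CPM in g2. It rose without overlap (log2 fold change 0.97 ± 0.20 SE, adjusted p = 0.00366, edgeR) and was called higher with each guide, whereas POLD1 was called lower and POLD3 was not called.

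Of 34 further nucleotide synthesis genes, 6 were called lower and 0 higher, and 29 had log2 fold changes below 0 (median -0.28). IMPDH1, the first enzyme of the guanine branch, measured 7.996, 8.997, 6.10, 7.94 and 4.40 CPM in gCtl, 1.999, 1.48 and 1.10 CPM in g1, and 0 and 0.581 CPM in g2. It fell by 2.76 on the log2 scale (adjusted p = 0.00122, edgeR), a value that depends on how counts near 0 are treated. IMPDH1 too passed the filter of 3 RPM only through gCtl, as no library labelled knockdown exceeded 2.09 RPM. PRPS2, which makes the ribose donor of purines and pyrimidines, fell by 1.60 (adjusted p = 0.00224). NME2, a nucleoside diphosphate kinase, fell by 1.36 (adjusted p = 0.000162), though reads of its close copy NME1 and of their readthrough gene could be split among them. The share called lower in this list was 6 of 34 and that in the further replication genes 2 of 34, beside the 11.0% of all genes tested.

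Among 16 E2F and pocket protein genes tested, 2 were called lower and 1 higher in the pooled comparison, shares near those of all genes tested (11.0% and 8.14%). TFDP1, the partner with which E2F factors bind DNA, measured 48.0, 44.8, 27.2, 46.0 and 41.5 CPM in gCtl, 22.2, 24.9 and 20.9 CPM in g1, and 16.3 and 15.7 CPM in g2, and fell without overlap (log2 fold change -1.05 ± 0.18 SE, adjusted p = 0.00118, edgeR). E2F4, a repressor-type E2F, fell by 2.42 (adjusted p = 0.013) from low levels of 1.93 to 13.7 CPM in gCtl, which overlapped the 0 to 4.30 CPM of the libraries labelled knockdown. Of the latter only g2 replicate 1 exceeded 3 RPM, so E2F4 passed the filter through gCtl. E2F5 rose by 0.91 (adjusted p = 0.0258). Of 16 proliferation markers, 8 were called lower, 0 higher and all 16 had values below 0, with a median of -0.48. Over all genes tested, 11.0% were called lower and 8.14% higher. In 6 of the 16 every library labelled knockdown lay below every gCtl library, as in 8.33% of all genes tested. In MKI67 the g1 libraries stood at 591, 787 and 308 RPM and the g2 libraries at 279 and 335 RPM, against 495 to 693 RPM in gCtl. CCNE1, the G1 to S cyclin, fell by 1.52 (adjusted p = 0.00511), CDC20 by 1.30 (adjusted p = 0.00201) and PLK1 by 1.02 (adjusted p = 0.00437).

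Calls within a single guide often turned on 1 library. With g1, MCM2 was not called without g1 replicate 1 or 3, GINS2 without gCtl replicate 1 or 2 or g1 replicate 2, and RPA1 and RPA3 without g1 replicate 3. With g2, leaving out g2 replicate 2 ended the calls of MCM2, PRIM1, RPA1 and FEN1, and leaving out gCtl replicate 1, 2 or 4 or either g2 library ended that of RRM1. FEN1, RRM1 and RPA2 with g1, and RFC3, GINS2, GINS3 and RPA2 with g2, kept their calls whichever library was left out. Opposite-strand genes with more counts than the member also overlap GINS2 (GSE1), RPA1 (SMYD4), RFC4 (EIF4A2) and RFC5 (WSB2).

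The share of counts from the mitochondrial genome was 18.3% to 23.97% in gCtl, 19.0% to 20.6% in g1, and 16.8% and 12.0% in g2. The g1 libraries lay inside the gCtl range and both g2 libraries below it, and the part of this difference in the g2 results was not tested. With those genes left out of the counts, 12 of the 49 genes were called lower and 0 higher in the pooled comparison. Of all 11627 genes then tested, 1308 were called lower and 925 higher. A test against a fold change of 1.5 itself (glmTreat), which asks that the change exceed the minimum, called MCM2, RPA2 and FEN1 in the pooled comparison (2.84% of all genes tested were called lower by it). It called FEN1 and RRM1 with g1 (2.83% of all genes), MCM2, GINS3 and RFC3 with g2 (4.44%) and GINS3 in g2 against g1 (0.601%).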

How the data were processed

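RNA-seq was available for 10 Caco-2 libraries (5 gCtl, 3 g1, 2 g2), grouped by GEO's labels; replicate numbers are in accession order and only name libraries. The authors prepared QuantSeq 3' libraries, pseudoaligned reads to GENCODE release 24 transcripts (GRCh38) with kallisto (version given as 42.5 in the submitters' processing notes) and deposited estimated counts per transcript, neither normalized nor pooled. Use of strand in counting was not given in the sources used here.

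Here the estimated counts were added up by gene and rounded. A gene was kept if it had a protein-coding transcript and exceeded 3 RPM in 20% or more of the libraries, following the study's methods. The 11640 genes left were tested by quasi-likelihood in edgeR 4.0.16 (R 4.3.3; TMM, library sizes over all counts), in a fit with 2 groups (g1 and g2 together against gCtl, called pooled) and a fit with 3 groups (common biological coefficient of variation 0.205). P-values were adjusted over all genes by Benjamini-Hochberg, intervals are 95%, and LHFPL3-AS2 was compared by an exact permutation test in scipy 1.17.1. Totals of 3838803 to 8730468 counts per library limit the precision of low genes. Replicate pairs differed by more than sampling noise.

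The 49 genes and all lists were chosen with earlier results of these data known. Genes called in any comparison were given in full, up to 4 per functional group, the others by range, and of the pathway lists the 3 largest called changes in each direction. Transcript ends came from GENCODE release 29 (same assembly) and promoters from RefSeq, where 6 of the 49 genes had no entry. Alternatives were DESeq2 1.42.0, limma 3.58.1, other scalings, filters and thresholds, protein-coding transcripts alone, and each library left out. The transcript fit and the counts without mitochondrial genes were chosen after seeing the data. Programs were tested on simulated data.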

Additional observations from a re-analysis of the deposited data

Results flagged for a closer look

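GINS3 and RFC3 were the genes of the 49 called in the direct test of g2 against g1 in edgeR, with the 1.5-fold minimum. MCM3 had an adjusted p of 0.0467 there and was under that minimum. The log2 fold change of g2 against g1 was -1.24 for GINS3 (adjusted p = 0.00194) and -1.09 for RFC3 (adjusted p = 0.00243), and in both genes the 2 g2 libraries lay below all 3 g1 libraries. Over all 11640 genes tested, the g2 libraries lay below all g1 libraries in 2014. For RFC3 the value lay between -1.21 and -1.01 under 24 alternatives and was not called in the test against a fold change of 1.5, and for GINS3 it was above 0 with protein-coding transcripts alone.

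Among the 5 gCtl libraries, 1 of the 49 genes had a library far from the others by Dixon's criterion (0.71 for 5 samples). LIG1 was at 15.7 CPM in gCtl replicate 5 and at 9.39 to 10.995 CPM in the other gCtl libraries. Chance alone puts about 1 in 20 groups past this value.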

How the results depend on the processing

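The number of the 49 genes called in the pooled comparison was 12 and stayed within 1.5 times of that under all alternatives except the test against a fold change of 1.5, which called 3. That test called 2 with g1, 3 with g2, 1 with g2 against g1, 2 of 7 functional groups (in place of 5) and 5 other pathway genes (in place of 20); of all genes it called 488 in place of 2232. With protein-coding transcripts alone 47 of the 49 genes were tested, and POLD1 was not among them. Then 6 genes were called with g1 (1558 of all 11476 genes tested) and 1 in g2 against g1 (322 of all). With g1, GINS2, POLD2, RRM1, TK1 and DUT lost their calls, so the 6 include a gene not called with g1 above. In g2 against g1, library totals alone and limma on log2(RPM + 1) and log2(RPM + 0.1) each called 4 in place of 2. Over all genes these called 755, 778 and 800 in place of 579. Leaving out 1 library at a time gave 10 to 15 calls in the pooled comparison, 6 to 15 with g1 (7 without gCtl replicate 1 or 2, 6 without g1 replicate 2 or 3), 6 to 16 with g2 (6 without g2 replicate 2) and 2 to 5 in g2 against g1 (5 without g2 replicate 1). Over all genes the same fits called 1701 to 2424 in the pooled comparison, 1249 to 2260 with g1, 1501 to 3114 with g2 and 267 to 858 in g2 against g1.

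Direction changed under 1 alternative, protein-coding transcripts alone: GINS3 with g2 (1.72), GINS3 in g2 against g1 (0.96) and RRM1 with g2 (0.63). Under it, counts at other transcript types were left out by construction, and those were most of the counts of both genes. MCM2, RPA2 and FEN1 kept their pooled call under all 23 alternatives. The difference in LHFPL3-AS2 was 0.47 on log2(RPM + 1), 0.66 on log2(RPM + 0.1), and 0.29 to 0.63 with each library left out. Genes at a few counts per library, such as POLD1, have wide intervals at this depth. No paired analysis was possible because the labels carry no replicate numbers.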
